A study of Mus musculus with 8 samples.

Results

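Of 10 genes chosen by symbol as transcription factors of the growing oocyte, or as proteins grouped with them, 8 were listed in the tables and are described here. They are Figla, Nobox, Sohlh2, Lhx8, Taf4b, Tbpl2, Foxo3 and Stat3. Sohlh1 and Gcna were not listed under these symbols, and RefSeq's symbol for Gcna, Gm52429, was not listed either, so no value is given for them. All 8 listed genes passed the filter on low values and were among the 13968 genes tested of 15962 shared by all tables.

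These factors act while the oocyte grows inside its follicle. FIGLA, SOHLH1 and SOHLH2 are basic helix-loop-helix proteins that bind E-boxes, and NOBOX and LHX8 are homeodomain proteins; together they switch on genes of the early follicle, such as those of the zona pellucida. TBPL2 takes the place of the TATA-binding protein on promoters of growing oocytes and works with TFIIA, and TAF4B is a germ cell subunit of TFIID. FOXO3 holds primordial follicles dormant until signalling through PI3K and AKT moves it out of the nucleus, and STAT3 is activated by JAK kinases. GCNA differs from the others, since it is known for the repair of proteins crosslinked to DNA rather than as a sequence-specific factor. The fully grown oocyte is nearly silent in transcription, so that its later RNA levels are set by storage, polyadenylation and decay. BTG4 brings the CCR4-NOT deadenylase to maternal RNAs during meiotic maturation.

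Polyadenylated RNA was measured by Smart-seq2 in 8 libraries of mouse oocytes, 2 in each of 4 groups, with 15 oocytes per sample according to the labels. GV oocytes are immature and still hold the germinal vesicle, MII oocytes have reached metaphase of the second meiotic division, and the labels give both as WT with no other allele. The groups Btg4wt and Btg4tm were MII oocytes whose treatment was wild-type BTG4 or BTG4 with alanine at T145, S146 and S147. The methods describe Myc-tagged capped RNA injected into fully grown oocytes, and 6-week-old superovulated ICR females as the source of oocytes. By the paper, the control GV and MII oocytes came from culture in vitro, so these MII oocytes were not ovulated eggs. No group injected with an unrelated RNA is among these libraries. Values below are TPM (a gene's share of the library's transcripts, corrected for gene length) divided by a median-of-ratios factor per library (0.948 to 1.11). Depth is unknown from TPM. The first strand was primed with oligo(dT), so a level depends on both poly(A) tails and molecule number, and in pooled oocytes fewer RNA-bearing cells and less RNA per cell cannot be told apart. Nothing in the labels says whether the samples of a group came from separate mice, so p-values measure the spread between these samples only.

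The material was checked before the members. All 13 oocyte markers were listed, with summed levels between 57493 and 75284 scaled TPM in every library. Of 16 cumulus and granulosa markers 8 were listed, and their summed level was 37.0 to 51.6 scaled TPM. Among those listed, Cyp19a1 was at 15.7 to 26.8 and Nr5a2 at 8.97 to 20.9 scaled TPM over the libraries. Foxl2, Amh and Fshr were among those not listed. A part of granulosa RNA in these libraries was not tested. Inha, the inhibin alpha subunit, was the 1 granulosa marker called among 5 tested, at 4.37 and 2.11 scaled TPM in GV, 0 and 0.532 in MII, 1.88 and 1.09 in Btg4wt and 9.83 and 5.18 in Btg4tm libraries. It thus moved in the directions of Figla below, and its part in those results was not tested. Replicate libraries correlated across genes at 0.982 to 0.987. Btg4 RNA was at 2650 and 2794 scaled TPM in GV, 5792 and 6002 in MII, 5178 and 5510 in Btg4wt and 3725 and 4068 in Btg4tm libraries. Neither injected group stood above uninjected MII oocytes by this scaling. Scaling to the mitochondrially encoded genes put Btg4wt above MII by 0.35 and Btg4tm above MII by 0.99 on the log2 scale. These levels therefore give no check of the injections, and the groups are called here by what their libraries are labelled. The paper shows immunoblots of both injected BTG4 forms in oocytes, which were not examined here. Mitochondrially encoded RNAs took 0.623% to 0.648% of the TPM in GV, 2.60% to 2.70% in MII, 1.75% to 2.05% in Btg4wt and 0.762% to 1.02% in Btg4tm libraries. Their part in the results was not tested, but scaling to them turns some directions.

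Sequence was taken from the mouse reference, not from the libraries. The 3 members that fell in maturation are shown first, by their promoters, because some factors of this group are known to bind E-boxes. A part of promoter elements in the fall was not tested. The promoters are RefSeq windows on GRCm38.p6 from 250 bases before to 50 bases after the start, for Figla on chr6:86016941-86017240 (plus strand), Nobox on chr6:43309505-43309804 (minus strand) and Lhx8 on chr3:154330511-154330810 (minus strand). The Figla window lies inside the Figla gene of GENCODE M21, chr6:86016171-86020996, so its E-boxes depend on the start used. Capitals mark E-boxes, CANNTG.

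Figla: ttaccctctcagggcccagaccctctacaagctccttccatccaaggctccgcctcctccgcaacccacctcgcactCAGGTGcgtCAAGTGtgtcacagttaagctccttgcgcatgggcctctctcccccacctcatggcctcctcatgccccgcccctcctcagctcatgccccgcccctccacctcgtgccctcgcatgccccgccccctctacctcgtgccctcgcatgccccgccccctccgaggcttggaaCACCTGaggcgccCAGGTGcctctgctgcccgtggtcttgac

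Nobox: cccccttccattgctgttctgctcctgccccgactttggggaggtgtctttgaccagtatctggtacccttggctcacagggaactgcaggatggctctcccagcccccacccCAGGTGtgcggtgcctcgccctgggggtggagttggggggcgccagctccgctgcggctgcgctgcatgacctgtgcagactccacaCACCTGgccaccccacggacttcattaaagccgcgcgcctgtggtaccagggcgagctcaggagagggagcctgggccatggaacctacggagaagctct

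Lhx8: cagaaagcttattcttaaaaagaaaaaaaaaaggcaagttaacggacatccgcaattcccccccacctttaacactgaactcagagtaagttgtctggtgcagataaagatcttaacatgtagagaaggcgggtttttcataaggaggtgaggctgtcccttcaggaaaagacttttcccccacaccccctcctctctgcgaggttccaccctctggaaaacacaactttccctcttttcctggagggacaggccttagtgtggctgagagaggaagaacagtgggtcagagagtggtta

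The Figla window held 4 E-boxes, the Nobox window 2 and the Lhx8 window 0. Among 32851 promoters of the same length, 72.3% held at least 1, 39.6% at least 2 and 6.49% at least 4. In the form CAGGTG, searched like the others on both strands and contained in CANNTG, 3 stood in the Figla window and 2 in the Nobox window, against 20.2% of all promoters with at least 1. Neither TAATTA nor TAATTG, core sequences of homeodomain proteins, was found in these 3 windows (5.29% and 8% of all promoters), and TATAAA was absent too (13.6%). Of the other members' windows, those of Tbpl2, which did not fall, and Sohlh1, which has no listed level, held 5 E-boxes each. Sohlh2 and Stat3 held 1 each and Foxo3 0. At least 5 were held by 2.10% of all promoters. RefSeq's table held no window for Taf4b.

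The 3' ends differed in length and in elements that oocytes use for cytoplasmic polyadenylation and decay. In the longest coding transcripts of GENCODE M21 on GRCm38, the 3' UTR was 120 bases long in Figla, 281 in Nobox and 665 in Lhx8, and 266 in Tbpl2, 921 in Sohlh2, 2231 in Taf4b, 3701 in Stat3 and 4490 in Foxo3. The median over 10995 tested genes was 1056. The first 3 are those that fell in maturation, and each was shorter than that median, as were Tbpl2 and Sohlh2, which did not fall. A relation of length to the fall was not tested. Sites of at most 30 bases are shown for the RNAs that fell or rose, with capitals on the element named.

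Figla, poly(A) signal 27 bases from the end: tgtaaaatataATTAAAatgagatgatatg

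Nobox, poly(A) signal 45 bases from the end: gcagtgcatgcAATAAAtaaaacagtaact

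Lhx8, Pumilio element 68 bases from the end: ggagttctagcTGTAAATAacactctagtt

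Sohlh2, cytoplasmic polyadenylation element 76 bases from the end: ttacacaaacaTTTTATtgttaaagtgtct

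Foxo3, Pumilio element 96 bases from the end: cccgtggcgttTGTAGATAttgcctgtgta

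The cytoplasmic polyadenylation element TTTTAT, searched on the sense strand, was found 0 times in Figla and Nobox, where 12.4% and 25.6% of 3' UTRs of like length (0.8 to 1.25 times) held it. Sohlh2 held 3 copies, at 110, 76 and 11 bases from the end, and 54.8% of like 3' UTRs held at least 1. Lhx8 held 2 copies, 550 and 474 bases from the end (44.0%), and Foxo3 held 4 (93.8%), Taf4b 3 (83.3%) and Stat3 1 (89.9%). The Pumilio element TGTANATA was found once in Lhx8 (15.3%), once in Taf4b (37.1%) and 2 times in Foxo3 (54.2%), and not in the others. The AU-rich element TATTTAT was found in Taf4b (43.6%) and in no other member. In Tbpl2 the annotated 3' UTR held none of these elements and neither AATAAA nor ATTAAA. No exon of the members overlapped another gene except 0.756% of the exonic bases of Stat3, which overlap Stat5a on the other strand, and no member's transcript shared a 50-base stretch with another gene.

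TPM correct for gene length, but the lengths used are not given and levels depend on poly(A) tails, so the order between genes is approximate. In GV oocytes the levels ran in the order Nobox, Lhx8, Figla, Tbpl2, Foxo3, Stat3, Taf4b and Sohlh2. Their means went from 1396 to 8.66 scaled TPM. Libraries of neighbours in this order did not overlap in any group, although Taf4b at 11.4 and 14.9 stood just above Sohlh2 at 11.4 and 5.91 scaled TPM. In MII oocytes the order was Nobox, Foxo3, Tbpl2, Lhx8, Stat3, Sohlh2, Taf4b and Figla. Figla went from the third place to the last, and Foxo3 from the fifth to the second. The order in Btg4wt libraries was that of MII oocytes, while in Btg4tm libraries Lhx8 was again second and Figla stood behind Foxo3. The plot of levels by library shows every value.

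**Figure D1:**
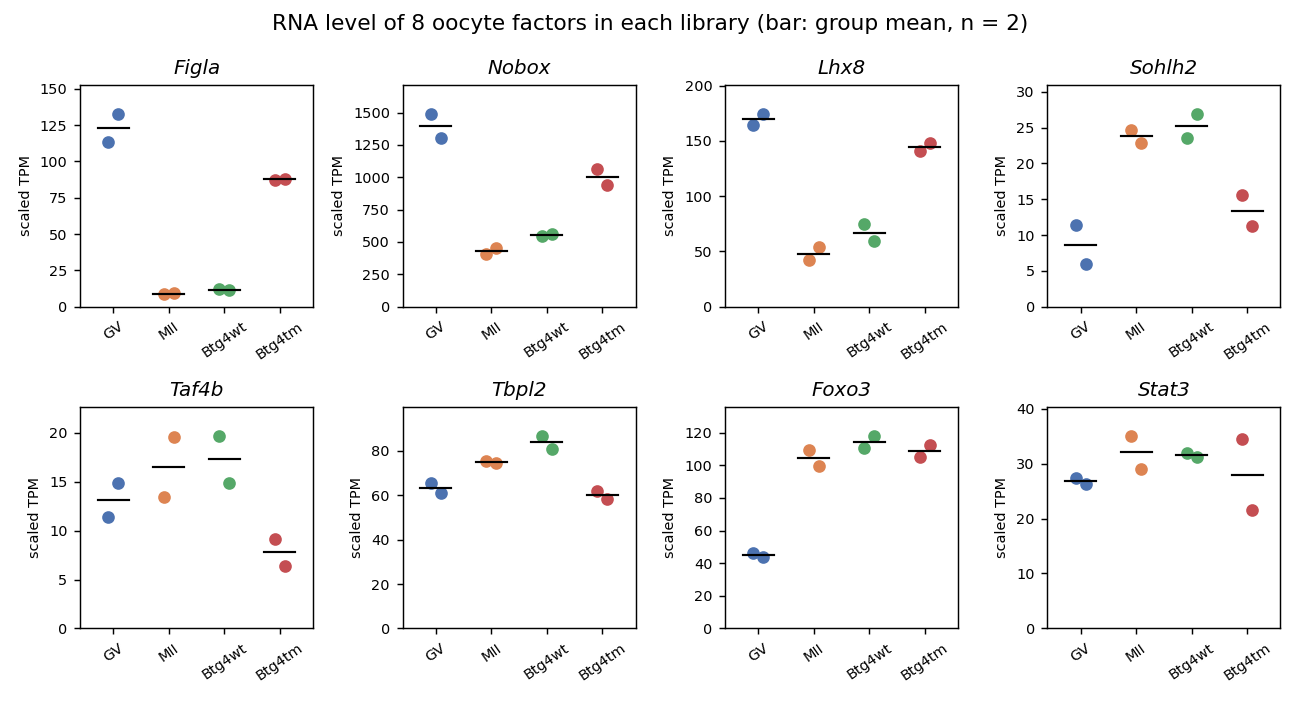
Scaled TPM (vertical axes, from 0) of the 8 members in each of the 8 libraries, by group; points are libraries and bars are means of 2. Figla, Nobox and Lhx8 drop from GV to MII and stand higher in Btg4tm than in Btg4wt, while Foxo3 stays between 99.5 and 118 in all MII-stage libraries.

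Maturation was compared first: which of these RNAs are lost between GV and MII? Figla, Nobox and Lhx8 fell on the way to MII, Sohlh2 and Foxo3 rose except under scaling to the mitochondrially encoded genes, and Taf4b, Tbpl2 and Stat3 did not pass the test. A gene was called at a Benjamini-Hochberg adjusted p below 0.05, over all genes in the limma fit, together with a log2 fold change beyond 1 in size. By this rule 3 of 8 members were lower, where 24.0% of all genes tested were, and 2 were higher, where 12.5% were. All MII values were below all GV values in 3 members and above them in 4, where 41.6% and 41.1% of all genes were so placed. Groups that do not overlap were thus common over all genes. The median log2 fold change of the members was 0.24, beside -0.00 over all genes. Of all genes called, 65.7% were lower, but 45.8% with quantile normalization, 76.4% with TPM as deposited and 99.9% after scaling to the mitochondrially encoded genes, which moves the median of all genes to -1.74. Directions of single genes are therefore relative to this median.

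Figla, the E-box factor of the zona genes (chr6:86016171-86020996, plus strand), was at 113 and 133 scaled TPM in GV and at 8.81 and 9.21 in MII oocytes. Both MII values were far below both GV values, and 7.33% of the GV mean was left. On the log2(scaled TPM + 1) scale the difference was -3.62 (SE 0.12, adjusted p = 4.8e-07), a 12.3-fold fall, the largest among the 8 members. Its 95% interval, from -3.91 to -3.34, did not reach those of Nobox or Lhx8.

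Nobox, the homeodomain factor without which oocytes are lost in early follicles (chr6:43303674-43309554, minus strand), was at 1490 and 1302 scaled TPM in GV and at 410 and 452 in MII oocytes. The groups did not overlap, and 30.9% of the GV mean was left. This was a log2 difference of -1.69 (SE 0.11, adjusted p = 6.3e-06). Nobox was still the most abundant member in MII oocytes, higher than 97.7% of all genes tested.

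Lhx8, the LIM homeodomain factor (chr3:154306294-154330659, minus strand), was at 165 and 174 scaled TPM in GV and at 42.0 and 54.0 in MII oocytes. The groups did not overlap, and 28.3% of the GV mean was left. The log2 difference was -1.81 (SE 0.15, adjusted p = 2.4e-05). The 95% intervals of Lhx8 and Nobox, -2.17 to -1.46 and -1.94 to -1.44, overlapped, and the difference between the genes was not tested.

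Sohlh2, the helix-loop-helix partner of SOHLH1 (chr3:55182028-55209957, plus strand), went the other way, from 11.4 and 5.91 scaled TPM in GV to 24.7 and 22.9 in MII oocytes. The groups did not overlap, but the GV libraries differed widely. The log2 difference was 1.42 (SE 0.27, adjusted p = 0.0021), and after scaling to the mitochondrially encoded genes it was -0.64, that is 1.10 above the median of all genes. Without GV replicate 2 it fell just short of the fold threshold, at 0.9998, so that this call rests on 1 library.

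Foxo3 (chr10:42181841-42276755, minus strand) rose from 46.5 and 44.1 scaled TPM in GV to 109 and 99.5 in MII oocytes. The groups were well apart, by a log2 difference of 1.19 (SE 0.10, adjusted p = 2.9e-05), and it was -0.998 with the mitochondrial scaling, 0.74 above the median of all genes.

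The basal factors and Stat3 were steadier. Tbpl2 (chr2:24071721-24096595, minus strand) was at 65.7 and 61.2 scaled TPM in GV and at 75.4 and 74.6 in MII oocytes. The groups did not overlap, yet the log2 difference of 0.24 did not pass the test (SE 0.10, adjusted p = 0.074). Taf4b (chr18:14783245-14900359, plus strand) was at 11.4 and 14.9 in GV and at 13.4 and 19.6 in MII oocytes, and the groups overlapped. Its log2 difference was 0.29, with a 95% interval from -0.29 to 0.87. Stat3 (chr11:100885098-100939540, minus strand) was at 27.3 and 26.3 in GV and at 35.1 and 29.0 in MII oocytes. All Stat3 values of MII were above those of GV, and the log2 difference was 0.24, with an interval from -0.23 to 0.72. Under the mitochondrial scaling these 3 genes had log2 differences of -1.94, -1.78 and -1.90 for Tbpl2, Taf4b and Stat3, which is -0.20, -0.04 and -0.16 from the median of all genes.

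The injected oocytes were compared next: are the RNAs that fell higher after injection of BTG4 mutated at the 3 residues than of wild-type BTG4? The oocytes' own BTG4 was not deleted, and the paper reports that both injected forms seemed to reduce it. Figla and Lhx8 were higher in Btg4tm than in Btg4wt libraries, Nobox was higher at a fold below the threshold, and Taf4b was lower. Thus 2 of 8 members were called higher, where 18.1% of all genes were, and 1 lower, where 7.94% were. All Btg4tm values were below all Btg4wt values in 3 members and above them in 3, where 36.7% and 37.6% of all genes were so placed. The median log2 fold change of the members was -0.14, beside 0.01 over all genes. Of all genes called, 30.4% were lower, but 46.8% with quantile normalization and 1.12% with the mitochondrial scaling, which moves the median of all genes to 0.88.

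**Figure D2:**
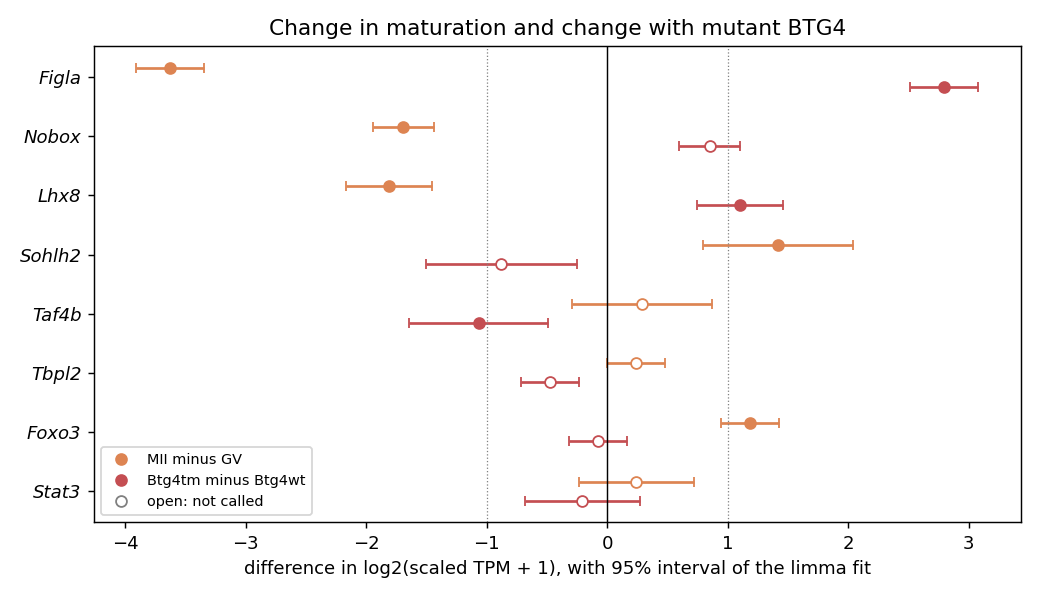
Difference in log2(scaled TPM + 1) of each member in MII against GV and in Btg4tm against Btg4wt, with 95% intervals of the limma fit; filled points were called, open ones were not, and dotted lines mark the fold threshold. Figla, Nobox and Lhx8 lie left of 0 in maturation and right of 0 with mutant BTG4, and the 2 differences share no library.

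Figla was at 11.9 and 11.5 scaled TPM in Btg4wt and at 87.3 and 87.8 in Btg4tm libraries. No other member was as far apart. The difference was 2.80 on the log2 scale (SE 0.12, adjusted p = 2.0e-06), a 6.96-fold difference.

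Lhx8 was at 75.0 and 59.0 scaled TPM in Btg4wt and at 140 and 148 in Btg4tm libraries. The groups did not overlap. The log2 difference was 1.10 (SE 0.15, adjusted p = 0.00055), and it came to 0.88 by quantile normalization and 0.93 without Btg4wt replicate 2, both below the fold threshold.

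Nobox was at 544 and 563 scaled TPM in Btg4wt and at 1061 and 943 in Btg4tm libraries, with no overlap. Its log2 difference of 0.85 (SE 0.11, adjusted p = 0.00036) corresponded to 1.80-fold and so was not called.

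Taf4b was at 19.7 and 14.9 scaled TPM in Btg4wt and at 9.14 and 6.39 in Btg4tm libraries, below all its other values. The log2 difference was -1.07 (SE 0.25, adjusted p = 0.0083), and it was -0.06 with the mitochondrial scaling, which is -0.94 from the median of all genes. Its call was lost without Btg4wt replicate 1 (-0.88, adjusted p = 0.055) and without Btg4tm replicate 2 (-0.84, adjusted p = 0.051).

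Sohlh2 was at 23.5 and 26.9 scaled TPM in Btg4wt and at 15.6 and 11.2 in Btg4tm libraries. The groups did not overlap, and the log2 difference was -0.88 (SE 0.27, adjusted p = 0.027), below the fold threshold. Tbpl2 was at 86.9 and 81.1 in Btg4wt and at 62.1 and 58.2 in Btg4tm libraries, also without overlap. Its log2 difference was -0.48 (SE 0.10, adjusted p = 0.0056), below the fold threshold as well. Under that scaling both signs turned, to 0.16 and 0.60.

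Foxo3 was at 111 and 118 scaled TPM in Btg4wt and at 105 and 112 in Btg4tm libraries. The groups overlapped, and the log2 difference was -0.07, with a 95% interval from -0.31 to 0.17. Under the mitochondrial scaling it was 1.005, 0.13 above the median of all genes. Stat3 was at 32.0 and 31.2 in Btg4wt and at 34.5 and 21.5 in Btg4tm libraries. These groups overlapped too, and the log2 difference was -0.21, with an interval from -0.68 to 0.27, and it was 0.85 under the mitochondrial scaling.

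How far each RNA stood from its GV level was then asked for the 3 that fell. In Btg4wt libraries 9.55% of the GV mean of Figla, 39.7% of that of Nobox and 39.5% of that of Lhx8 were left. In Btg4tm libraries the shares were 71.3%, 71.8% and 85.0%. On the log2 scale the difference between Btg4tm and Btg4wt made up 77.2% of the decline of Figla, 60.9% of that of Lhx8 and 50.4% of that of Nobox. On the linear scale the shares were 66.6%, 63.5% and 46.4%. Figla, which fell furthest, thus had the largest share on either scale, while Lhx8 reached the level nearest to GV, at 85.0%. The order of these shares was not tested.

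**Figure D3:**
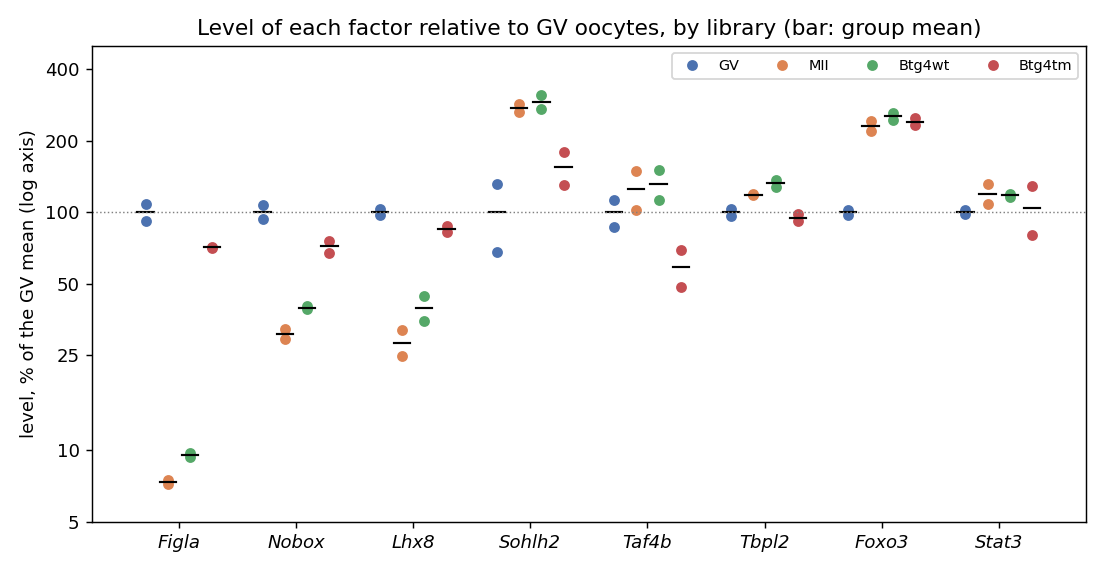
Level of each member in each library as a percentage of its GV mean, on a log axis; colours give the group, bars are means of 2 and the dotted line is 100%. Figla, Nobox and Lhx8 stand at 71.3%, 71.8% and 85.0% of GV in Btg4tm, and Foxo3 stays at 231% to 253% in all 3 MII-stage groups.

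Whether this regain equalled the decline was tested by the contrast of both differences. It differed for 3 of 8 members at an adjusted p under 0.05, where 7.62% of all genes did. For Figla the contrast was -0.83 on the log2 scale (SE 0.17, adjusted p = 0.032) and for Nobox -0.84 (SE 0.16, adjusted p = 0.024), so that in both the regain was smaller than the decline. For Lhx8 the value was -0.71, which did not pass (SE 0.22, adjusted p = 0.086). The contrast is also the difference of Btg4tm from GV less that of Btg4wt from MII. These differences were -0.48 and 0.35 for Figla, -0.48 and 0.36 for Nobox and -0.23 and 0.48 for Lhx8. The shortfall of these genes in the contrast thus includes the stand of Btg4wt above uninjected MII libraries. For Foxo3 the contrast was 1.11 (SE 0.15, adjusted p = 0.016), where the rise in maturation was 1.19 and the difference between the injected groups -0.07. Under the mitochondrial scaling, however, the contrast of Foxo3 was 0.0065 (adjusted p = 0.99). The 3 calls were lost when limma was run without a trend. With 1 library left out at a time, the call of Figla was lost in 7 of 8 fits, all but that without GV replicate 1, with adjusted p up to 0.12. The call of Nobox was lost in 5 of 8, without GV replicate 2 and without either MII or either Btg4wt replicate, with adjusted p up to 0.097. That of Foxo3 was lost in 4 of 8, without GV replicate 2, either MII replicate or Btg4wt replicate 1, with adjusted p up to 0.074.

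Injection of wild-type BTG4 was compared with uninjected MII oocytes, which bears on whether Btg4wt libraries stand for maturation in culture without injection. No member was called and 0 of 13968 genes were (0%) by limma, while at an unadjusted p under 0.05 there were 3 members, Figla, Nobox and Lhx8, and 1655 genes. The log2 differences of these members were 0.35, 0.36 and 0.48, and the adjusted p-values were 0.34, 0.29 and 0.31.

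Btg4tm libraries were also set against GV oocytes. Foxo3 alone of the 8 members was called (2.04% of all genes in either direction), with a log2 difference of 1.25 (SE 0.10, adjusted p = 0.0036). Figla and Nobox were lower, at -0.48 each, under the fold threshold (SE 0.12, adjusted p = 0.044, and SE 0.11, adjusted p = 0.032). The difference of Lhx8 was -0.23, with a 95% interval from -0.59 to 0.12, and that of Taf4b was -0.70, with an adjusted p of 0.11. Under the mitochondrial scaling Foxo3 was at 0.63 and was not called, while Figla (-1.11), Nobox (-1.11) and Taf4b (-1.32) were called lower. These comparisons share libraries with those above and are given side by side only.

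The genes that depend on these factors in growing oocytes did not move as 1 group. Of 16 such genes, 3 fell and 3 rose in maturation, where 24.0% and 12.5% of all genes did. The median log2 fold change of the 16 was 0.20. The 3 that fell encode the zona pellucida: Zp3 (log2 -2.59, adjusted p = 0.0014), Zp2 (-2.17, adjusted p = 0.0020) and Zp1 (-1.72, adjusted p = 0.0011). The 3 that rose were Oosp1, which encodes an oocyte-secreted protein (1.32, adjusted p = 0.00054), Jag1, a Notch ligand (1.32, adjusted p = 0.00015), and Rspo2, which amplifies WNT signals (1.07, adjusted p = 0.0010).

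In Btg4tm against Btg4wt libraries 3 of the 16 were higher and 4 lower, where 18.1% and 7.94% of all genes were. The 3 higher were again the zona genes, Zp3 by 2.37, Zp2 by 1.59 and Zp1 by 1.23 on the log2 scale. The 4 lower were Kit, the receptor of KIT ligand (-1.50), Rspo2 (-1.49), Pou5f1, a pluripotency factor (-1.27), and Oosp1 (-1.12). The growth factors Gdf9 and Bmp15 were called in neither comparison. Scaled to the mitochondrially encoded genes, 14 of the 16 were lower in MII and 8 were higher in Btg4tm libraries. By that scaling 11403 and 6089 of all 13968 genes were so called.

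Most partners and relatives of the germline factors had low levels, and Tcf3 had the highest of those tested. Of 9 genes for E-proteins, LIM cofactors and LIM homeodomain proteins 6 were tested. In maturation 1 was called higher, Lhx2, and 0 lower, where 12.5% and 24.0% of all genes were. Lhx2 was at a mean of only 1.44 in GV and 4.33 scaled TPM in MII oocytes. Tcf3, an E-protein that pairs with helix-loop-helix factors, was at means of 12.3 in GV and 13.3 scaled TPM in MII oocytes. With mutant BTG4 0 of the 6 were called by limma, where 7.94% of all genes were called lower and 18.1% higher. The mitochondrial scaling gave 3 lower and 0 higher in MII, without the rise of Lhx2, and 1 higher in Btg4tm libraries. Of all 13968 genes it called 11403 lower in MII and 6089 higher in Btg4tm libraries. Lhx2 and Tcf3 fall outside the rule for named genes and were picked after their values were seen.

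Genes of TFIID, TFIIA and the TBP family encode the machinery in which TAF4B and TBPL2 work. Of 18 tested, 9 were higher in MII oocytes and 1 was lower, where 12.5% and 24.0% of all genes were. The median log2 fold change was 0.99, and with TPM as deposited 6 were higher. Gtf2a1 (1.94, adjusted p = 0.00012) and Gtf2a2 (1.62, adjusted p = 2.6e-05) encode TFIIA, and Taf4, the broadly expressed relative of Taf4b, rose by 1.48 (adjusted p = 0.00012). Taf12, whose product pairs with TAF4 proteins, fell by 1.26 (adjusted p = 2.9e-05). In Btg4tm libraries 1 of the 18 was called, Taf3, which was lower (-1.03, adjusted p = 1.0e-04). The shares of all genes called there were 7.94% lower and 18.1% higher. Under the mitochondrial scaling 11 of the 18 were lower in MII and 0 higher by limma, and 7 were higher in Btg4tm libraries. Of all 13968 genes 11403 were lower in MII and 6089 higher in Btg4tm libraries by that scaling.

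The PI3K, AKT and FOXO pathway, which controls FOXO3 in the primordial follicle, had 20 genes tested. In MII against GV oocytes 5 were higher and 0 lower by limma, where 12.5% and 24.0% of all genes were. The median difference was 0.65. The 3 largest were Pik3r1, the regulatory subunit of PI3K (1.23, adjusted p = 0.00019), Rictor, a subunit of mTORC2 (1.18, adjusted p = 0.0030), and Rheb, the GTPase that activates mTORC1 (1.18, adjusted p = 3.1e-05). In Btg4tm against Btg4wt libraries 5 were lower and 0 higher, where 7.94% and 18.1% of all genes were. Among the 5 were Pik3r1 (-2.12, adjusted p = 1.8e-05), Tsc1, a brake on mTORC1 (-1.82, adjusted p = 0.00016), and Kit (-1.50, adjusted p = 4.1e-05). Under the mitochondrial scaling 17 were lower in MII oocytes, and 1 was lower and 1 higher in Btg4tm libraries. Of all 13968 genes 11403 were then lower in MII, and 69 were lower and 6089 higher in Btg4tm libraries.

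In the JAK and STAT pathway 19 of 26 genes were tested. Of these, 3 rose and 2 fell in maturation, where 12.5% and 24.0% of all genes did. With TPM as deposited 1 rose and 2 fell. Ptpn11, a phosphatase of cytokine signalling (1.21), Jak1 (1.03) and Il6st, the shared receptor subunit gp130 (1.005), rose. Stat6 (-1.47) and Ptpn6, a phosphatase (-1.26), were the 2 that fell. The 3 that rose were also the 3 called lower in Btg4tm libraries, Ptpn11 by -1.41, Il6st by -1.38 and Jak1 by -1.28. By limma 0 were called higher there, and of all genes 7.94% were lower and 18.1% higher. With the mitochondrial scaling 17 of the 19 were lower in MII and 3 were higher in Btg4tm libraries, where 11403 and 6089 of all 13968 genes were.

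The repair of DNA-protein crosslinks, the process GCNA belongs to, was covered by 8 genes, all tested: 3 repair genes and 5 topoisomerases, enzymes that can become crosslinked to DNA. The topoisomerase genes Top1 (1.74, adjusted p = 1.0e-05) and Top2b (1.14, adjusted p = 0.00032) were higher in MII oocytes. By limma 0 of the 8 were lower, and the repair genes Sprtn, Tdp1 and Tdp2 were not called there. Among all genes 12.5% were higher and 24.0% lower in MII. Sprtn, a protease of this repair, was the 1 gene called in Btg4tm libraries, where it was lower (-1.46, adjusted p = 0.00023). Among all genes 7.94% were called lower and 18.1% higher there. With the mitochondrial scaling 6 of the 8 were lower in MII oocytes and 3 higher in Btg4tm libraries, where 11403 and 6089 of all 13968 genes were.

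**Figure D4:**
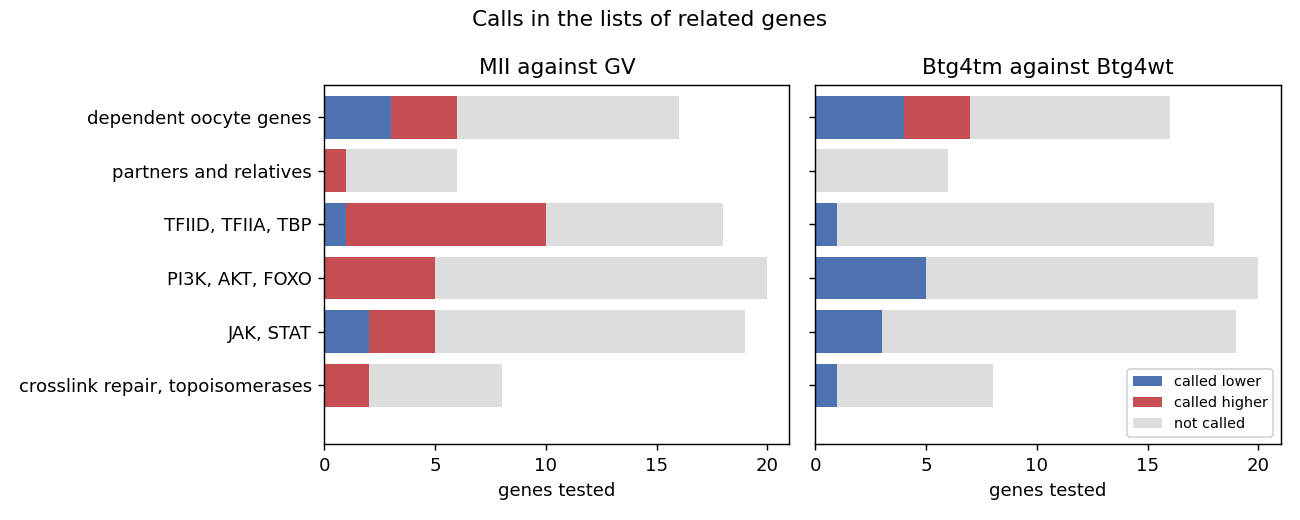
Number of genes tested in each of 6 lists of related genes (horizontal axis), split by colour into called lower, called higher and not called, in MII against GV (left) and Btg4tm against Btg4wt (right). The TFIID, TFIIA and TBP list has 9 of 18 genes higher in MII, and outside the list of dependent oocyte genes none of the lists has a gene called higher in Btg4tm.

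Each member was also matched to the genes whose centred log2 profile over the 8 libraries was nearest by root mean square distance, among 6881 genes of at least 10 scaled TPM on average. The nearest to Figla were Aimp2 (0.08), Rps6 (0.09) and Eif1ax (0.10), which encode parts of the translation machinery. Nobox was nearest to Tgfb3, Thap1 and Efcab6 (0.09 to 0.10) and Lhx8 to Slc25a35, Tcp1 and Rnf125 (0.08 to 0.09). Foxo3 was nearest to Zc3h15, Laptm4b and Fbxo15 (0.09 to 0.11) and Tbpl2 to Crnkl1, Cbx5 and Taf1a (0.06 each). The nearest genes of Sohlh2 (Ppp1r12a, Chfr and Ptp4a2) were farther, at 0.15 to 0.19, as were those of Taf4b (Nol9, Glyr1 and Acsl1), at 0.18 each. Stat3 was nearest to Orc1, Cep78 and Fbxo3, at 0.09 to 0.11. These distances describe 8 libraries that share 4 groups and carry no test.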

How the data were processed

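Polyadenylated RNA of 8 libraries was analysed, 2 each of GV, MII, Btg4wt and Btg4tm oocytes, grouped by their labels. The labels speak of 3 samples per group, and only the 2 per group analysed here entered. The authors trimmed reads with Trim Galore 0.6.10, aligned them to GRCm38 with HISAT2 2.2.0 and GENCODE vM25, counted primary alignments on exons without strand by featureCounts 2.0.6, and deposited TPM per gene symbol; the gene lengths and any filter on listed genes are not given in the sources used here. The deposited TPM keep no depth, so precision rests on 2 libraries per group. Their own tests by DESeq2 used counts, which were not used here.

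Of 17384 genes listed for GV and MII and 16448 listed for the injected oocytes, 15962 were shared. They were divided by a median-of-ratios factor per library, and those reaching 1 TPM in 2 or more libraries were tested on log2(scaled TPM + 1) with limma 3.58.1 in R 4.3.3 (1 coefficient per group, all 8 libraries, eBayes with trend, two-sided, Benjamini-Hochberg adjustment over the 13968 genes). Fold changes on this scale understate changes of low genes. The procedure was tested on simulated data. The members and the gene lists were chosen with earlier results of these data known.

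Genes named are the 10 members, Btg4, up to 3 called genes of each list with the largest fall and rise in either comparison at a mean of at least 5 scaled TPM, and the 3 nearest profiles of each member at a mean of at least 10. Gdf9, Bmp15, Lhx2, Tcf3, Inha, Cyp19a1, Nr5a2, Tdp1 and Tdp2 were added after their values were seen, and Foxl2, Amh and Fshr are named only as not listed. No member was listed in the control tables only, so the fit planned for that case was not needed. Alternatives were other scalings, pseudocounts, filters and thresholds, a replicate block, fits on fewer libraries or on 1 set of tables, and leaving out each library. Promoters came from RefSeq (GRCm38.p6), where 8 of the 10 members have one, and transcripts from GENCODE M21, an earlier annotation of the authors' build. No sequence is printed for Taf4b.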

Additional observations from a re-analysis of the deposited data

How the results depend on the processing

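Scaling to the mitochondrially encoded genes moved the results most. With it 6 members were lower in MII than in GV oocytes in place of 3, and 4 were higher in Btg4tm than in Btg4wt oocytes in place of 2. Between Btg4tm and GV 3 differed (Figla, Nobox and Taf4b) in place of Foxo3 alone. The regain of 5 differed from their decline (Figla, Nobox, Lhx8, Taf4b and Tbpl2, without Foxo3) in place of 3. Of all 13968 genes, this scaling called 11403 lower in MII and 6089 higher in Btg4tm libraries, so such calls were common. It reversed the log2 fold change in MII against GV of Sohlh2 (-0.64), Taf4b (-1.78), Tbpl2 (-1.94), Foxo3 (-0.998) and Stat3 (-1.90), and in Btg4tm against Btg4wt those of Foxo3 (1.005), Tbpl2 (0.60), Stat3 (0.85) and Sohlh2 (0.16). It also reversed 4 differences called under neither scaling, those of Stat3 in Btg4wt against MII (0.46) and Btg4tm against GV (-0.59) and the regain contrasts of Stat3 (-1.05) and Sohlh2 (-0.49). The cause was not tested. By quantile normalization 1 member was called higher in Btg4tm. With no minimum fold change 3 members differed between Btg4tm and GV. The regain differed for 0 members with eBayes without a trend and for 0 at an adjusted p under 0.01. When 1 library at a time was left out, which leaves a group with 1 sample assumed to vary like the others, 3 members were always lower in MII, 1 to 2 were higher in Btg4tm, 0 differed between Btg4wt and MII, 1 to 2 differed between Btg4tm and GV, and 0 to 3 had a regain that differed. The lowest counts came without Btg4wt replicate 2 for the members higher in Btg4tm, and the count of 2 against GV without GV replicate 1. Small differences that were not called changed sign in some of these fits: Stat3 ran from -0.54 to 0.12 in Btg4tm against Btg4wt, -0.15 to 0.12 in Btg4wt against MII, -0.32 to 0.34 in Btg4tm against GV and -0.30 to 0.36 in the regain contrast, and in Btg4wt against MII Taf4b ran from -0.18 to 0.33 and Sohlh2 from -0.0090 to 0.18. With TPM as deposited Stat3 was reversed in Btg4tm against GV (-0.13) and in the regain contrast (-0.13), and with only the 4 libraries of that comparison Tbpl2 was at 0.0011 in Btg4tm against GV. The regained share of the decline ran from 66.6% to 80.0% for Figla, 42.1% to 55.05% for Nobox and 51.4% to 70.0% for Lhx8 over the alternatives. The fall of Figla, Nobox and Lhx8 in maturation was called under every alternative run.

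Same-numbered libraries of different groups did not deviate together over all genes (correlations of their deviations from -0.05 to 0.06), and the main fit did not pair them. A pairing with a small effect or on few genes would not show in these correlations. With a replicate block the counts were 3 lower in MII, 2 higher in Btg4tm, 0 between Btg4wt and MII, 1 between Btg4tm and GV and 3 with a differing regain, the values of the fit without it. TPM give no depth, and with 2 libraries per group a difference of low genes such as Taf4b and Sohlh2 was measured less closely (SE 0.25 and 0.27) than that of Figla (SE 0.12).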
